A study of Mus musculus with 20 samples.

Results

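The 10 genes by which astrocytes are commonly recognised were followed through bulk RNA-seq data, namely *Gfap*, *Vim*, *Slc1a2*, *Slc1a3*, *Glul*, *Aqp4*, *Gja1*, *Gjb6*, *Aldh1l1* and *S100b*. They are 10 of the 35580 genes in the annotated tables, chosen by name as established astrocyte markers. The rule uses no measured value, but the choice was made with earlier results of these data known. The 20 samples are 5 of hippocampus and 5 of neocortex from WT and as many from miR-324-null animals, all male C57BL/6J mice at 13.5 months. The miR-324-null mice carry a CRISPR/Cas9 deletion of the *Mir324* locus on chromosome 11 throughout the body. The line was founded in hybrid C57BL/6 and CBA/ca embryos and then backcrossed onto C57BL/6J, and no other allele or treatment is given for either genotype. The labels number the samples 1 to 5 in each group without stating what each number stands for, so the p-values measure the spread between these samples. Whole tissue was sequenced, so a lower level of an astrocyte gene can come from fewer astrocytes or from less RNA per astrocyte, and these cannot be told apart here.

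Astrocytes are the glial cells that clear glutamate from synapses, buffer potassium and water around vessels, and couple to each other through gap junctions. GFAP and vimentin build the intermediate filament skeleton, which grows in reactive astrocytes and is stronger in hippocampal than in neocortical astrocytes. GLT-1 (*Slc1a2*) and GLAST (*Slc1a3*) take up glutamate and glutamine synthetase (*Glul*) converts it to glutamine. Aquaporin-4 (*Aqp4*) is the water channel of the endfeet that wrap vessels, connexin 43 (*Gja1*) and connexin 30 (*Gjb6*) form the gap junctions, ALDH1L1 is an enzyme of folate metabolism and S100B is a calcium-binding protein. Several of these genes are not limited to parenchymal astrocytes. Vimentin is also made by endothelial, meningeal and ependymal cells, *S100b* and *Glul* also by oligodendrocytes.

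A miRNA represses mRNAs whose 3′UTR pairs with its seed, bases 2 to 8 counted from its 5′ end. The mature strands of miR-324, which the miR-324-null mice lack, are shown because the genotype comparison turns on them, with the seed in capitals (RefSeq, GRCm38, chr11:70012060-70012082 and chr11:70012095-70012114, plus strand).
miR-324-5p: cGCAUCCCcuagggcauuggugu
miR-324-3p: cCACUGCCccaggugcugcu

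A letter-for-letter match to either seed stood in the 3′UTR of 2 of the 10 genes, *Slc1a2* and *Glul*, on the transcript strand of the coding transcript with the highest mean TPM (*Slc1a2*-202 and *Glul*-201). GGGATGC, the reverse complement of the miR-324-5p seed, occurred in both, against 7.95% of the 3′UTRs of 14232 genes. GGCAGTG, that of miR-324-3p, occurred in *Slc1a2* alone, against 14.4%. The *Slc1a2* 3′UTR is long, 9250 bases, and the *Glul* 3′UTR holds 1541. The sites are given with 10 bases on either side and the match in capitals (GRCm38, plus strand), in the order *Slc1a2* chr2:102784976-102785002, chr2:102784410-102784436 and chr2:102785301-102785327, then *Glul* chr1:153909039-153909065 and chr1:153909084-153909110.
*Slc1a2* miR-324-5p: tccctgctggGGGATGCtgggatctca
*Slc1a2* miR-324-3p first: ttggggctttGGCAGTGctattcctgt
*Slc1a2* miR-324-3p second: tgactaaaatGGCAGTGgttacaaccc
*Glul* miR-324-5p first: ggtagccagtGGGATGCcactgcttgc
*Glul* miR-324-5p second: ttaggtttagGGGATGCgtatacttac
None of the 5 matches was followed by an A in the mRNA. A match describes the letters and does not show that a site is used.

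The estimated counts totalled 12752439 to 15857771 per sample in WT hippocampus, 12755735 to 16239257 in miR-324-null hippocampus, 14238291 to 15071527 in WT neocortex and 13691038 to 19617765 in miR-324-null neocortex. *Mir324* itself, a short RNA, was not analysed here. Choroid plexus, the tissue that makes cerebrospinal fluid, gave over 1000 TPM of its genes in 3 libraries, WT hippocampus 3 (6965), miR-324-null hippocampus 5 (6020) and miR-324-null neocortex 2 (1287), against 19.1 to 184 in the other 17. Genes of striatal projection neurons summed to 152 to 547 TPM (median 291) in miR-324-null neocortex and 88.8 to 261 (median 104) in WT neocortex, with overlap. These libraries and miR-324-null neocortex 5, which stands low in several astrocyte genes, are taken up again beside the results they touch.

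All 10 genes were measured well above the counting limit in every sample, from a lowest estimated count of 433 for *Vim* to 18435 or more for *Glul* and 30890 or more for *Slc1a2*, and all 10 passed the filter on low counts in every comparison. Levels between genes are compared in TPM, which is scaled to transcript length. In WT hippocampus the mean ran from 1124 TPM for *Glul* through 442 for *Slc1a2*, 278 for *Gfap*, 268 for *Slc1a3*, 159 for *S100b*, 113 for *Gja1*, 63.7 for *Vim*, 46.7 for *Aqp4* and 39.0 for *Gjb6* to 27.3 for *Aldh1l1*. The sample ranges of *Gfap* and *Slc1a3* overlapped in this order, as did those of *Aqp4* and *Gjb6*, and all other neighbours were apart. In WT neocortex *Gfap* stood sixth at 74.3 TPM, below *Gja1* at 95.7, and *Vim*, *Gjb6*, *Aldh1l1* and *Aqp4* formed an overlapping set with means of 45.8, 45.8, 38.1 and 32.1 TPM. Summed over the 10 genes, the level was 2209 to 2845 TPM in WT hippocampus, 2068 to 2722 in miR-324-null hippocampus, 2444 to 2655 in WT neocortex and 2283 to 2839 in miR-324-null neocortex. The 4 ranges overlapped.

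**Figure D1:**
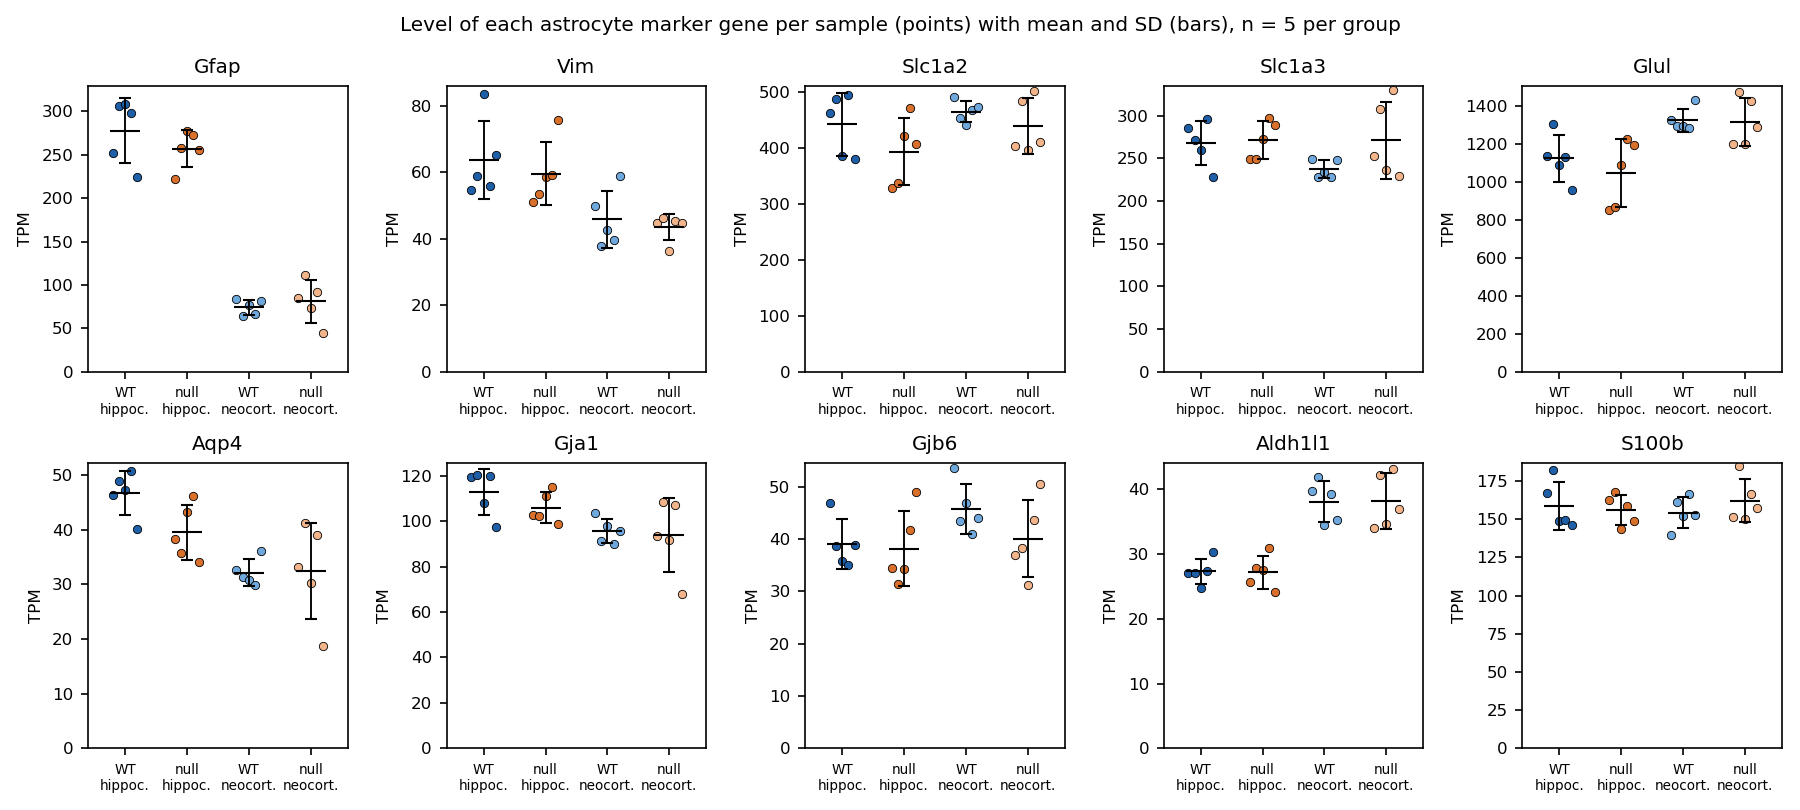
Level of each of the 10 genes in TPM (y axis, from 0) in the 5 samples (points) of each group, with the mean and SD as bars. *Gfap* separates the tissues by the most, *Aldh1l1* is lower in every hippocampal than in every neocortical sample, and miR-324-null neocortex 5 lies lowest of its group in *Gfap* (44.6 TPM), *Aqp4* (18.8) and *Gja1* (67.9).

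The tissue comparison asked where the astrocyte genes stand apart between the hippocampus and the neocortex. In WT mice 5 of the 10 genes differed (edgeR's quasi-likelihood test, adjusted p of at most 0.05 over all genes). *Gfap*, *Aqp4*, *Gja1* and *Slc1a3* were higher in the hippocampus and *Aldh1l1* was lower. Of all 14894 genes tested, 36.1% were called, 18.1% higher and 18% lower. In miR-324-null mice 3 of the 10 were called, *Gfap* and *Vim* higher and *Aldh1l1* lower, where 27.4% of 15033 genes were called, 13.8% higher and 13.6% lower. The median log2 fold change of the 10 genes was 0.13 in WT and 0.08 in miR-324-null mice, against -0.000771 and 0.00814 over all genes. Normalised CPM did not overlap between tissues for 4 of the 10 genes in WT (26.5% of all genes) and 3 in miR-324-null mice (21.1%).

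The genotype comparison asked whether loss of miR-324 changed these genes. None of the 10 was called in the hippocampus, where edgeR called 17 of 14796 genes (0.115%), and none in the neocortex, where it called 47 of 14930 (0.315%). In the hippocampus 9 of the 10 log2 fold changes of miR-324-null against WT were negative, with a median of -0.08, and 1 had an unadjusted p under 0.05. In the neocortex 7 of the 10 were negative, with a median of -0.06, and 0 had an unadjusted p under 0.05. DESeq2's Wald test, which called more genes (139 or 0.939% in the hippocampus, 240 or 1.61% in the neocortex), also called none of the 10. Genotypes did not overlap in CPM for 0 of the 10 in either tissue (2.55% and 2.3% of all genes). The 95% intervals of the log2 fold changes lay within -0.41 and 0.29 in the hippocampus and within -0.43 and 0.48 in the neocortex. No gene of the 10 had a genotype difference that itself differed between tissues (lowest unadjusted p = 0.310, lowest adjusted p = 0.963), where 0.0195% of 15391 genes did.

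**Figure D2:**
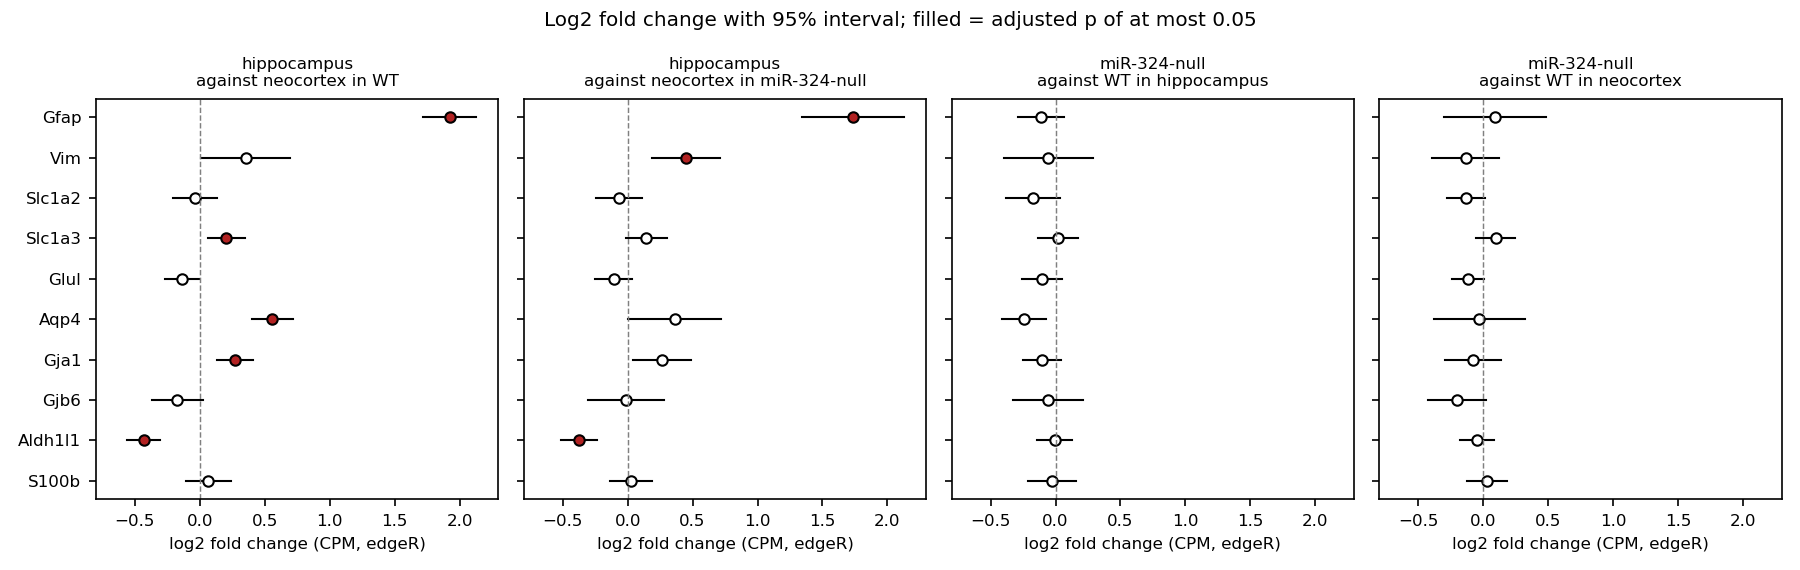
Log2 fold change (x axis) with its 95% interval for each gene in the 2 tissue and 2 genotype comparisons, filled where the adjusted p was at most 0.05. In the genotype panels all points are open and lie between -0.24 and 0.10.

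*Gfap* (chr11:102887336-102900912, minus strand, GRCm38) encodes the filament protein after which astrocytes are most often stained. Its level was 252, 306, 309, 298 and 224 TPM in WT hippocampus samples 1 to 5 and 222, 257, 277, 273 and 255 in miR-324-null hippocampus. It was 83.4, 64.0, 76.7, 66.0 and 81.2 TPM in WT neocortex and 84.7, 112, 73.7, 91.7 and 44.6 in miR-324-null neocortex. Every hippocampal sample lay above every neocortical one, and the genotypes overlapped in both tissues. The hippocampus was 3.79-fold higher in WT mice (log2 fold change 1.92 ± 0.0952, SE, n = 5 per group, edgeR adjusted p = 8.49e-09) and 3.33-fold higher in miR-324-null mice (1.74 ± 0.182, adjusted p = 2.21e-05). By genotype the log2 difference was -0.11 for hippocampal (adjusted p = 0.649) and 0.09 for neocortical samples (adjusted p = 0.893).

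*Gfap* has a pair of coding transcripts in the annotation that the estimates separate, and they did not move together by genotype. *Gfap*-201 spans chr11:102887336-102897131 with 9 exons and *Gfap*-202 spans chr11:102890166-102897200 with 8. They have 6 identical exons and 1176 bases in common, and *Gfap*-202 ends in an alternative last exon of 1355 bases (chr11:102890166-102891520), the arrangement known from the isoform GFAP-delta, whose protein has a different tail. The junction between exons 7 and 8 is shown for each because it tells the transcripts apart, with the first 15 bases of exon 8 in capitals and the last 15 of exon 7 in lower case (minus strand). Exon 7 ends at chr11:102891911-102891925 in both, and exon 8 begins at chr11:102889506-102889520 in *Gfap*-201 and at chr11:102891506-102891520 in *Gfap*-202.
*Gfap*-201: acctccagatccgagAAACCAGCCTGGACA
*Gfap*-202: acctccagatccgagGGGGCAAAAGCACCA

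*Gfap*-202 held 8.42, 8.40, 8.76, 9.17 and 8.90% of *Gfap* TPM in WT hippocampus and 3.55, 3.51, 3.33, 4.15 and 3.50% in miR-324-null hippocampus. In the neocortex it held 8.46, 7.77, 7.51, 8.26 and 7.04% in WT and 4.98, 4.29, 4.0, 4.16 and 3.82% in miR-324-null samples. All 10 miR-324-null samples lay below all 10 WT samples, and the lowest WT share, 7.04%, was apart from the highest miR-324-null share, 4.98%. How many of all transcripts stood apart by genotype in this way was not counted. In the hippocampus the level of *Gfap*-202 was 24.3 ± 3.43 TPM in WT (SD, n = 5) against 9.28 ± 1.26 in miR-324-null mice, and 5.79 ± 0.77 and 3.50 ± 1.21 in the neocortex. That of *Gfap*-201 was 254 ± 34.5 and 248 ± 20.7 TPM in the hippocampus and 68.5 ± 8.19 and 77.8 ± 23.6 in the neocortex. The estimates rest on 400 to 622 counts of *Gfap*-202 per WT hippocampal sample and 159 to 221 per miR-324-null one, and on 108 to 150 and 45.5 to 136 in the neocortex.

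This difference was seen in the values first and tested afterwards, in 3 ways. They did not all call it, and the permutation test could hardly do so. In an exact two-sided permutation test of the share, p was 0.00794 in each tissue, the smallest that 5 against 5 samples can give. Over the 64 tests made on the 16 transcripts that hold at least 1% of their gene, the adjusted p was 0.127. Of the 64, 0 passed the threshold, with 12 unadjusted p-values of at most 0.05 and 4 tests whose groups did not overlap. At the smallest possible p a test passes this adjustment only if many of the 64 tests reach that p. This result therefore cannot decide whether the share differs. With estimated counts of all transcripts in edgeR, *Gfap*-202 was lower in miR-324-null hippocampus by a log2 fold change of -1.39 (SE 0.111, adjusted p = 0.00238 over 34338 transcripts, rank 3 by p). It was called in 10 of 10 fits that left out a sample, with adjusted p between 0.00333 and 0.0206. In the neocortex the log2 fold change was -0.77 (SE 0.253, unadjusted p = 0.0122, adjusted p = 0.674). *Gfap*-201 changed by -0.04 in the hippocampus and 0.14 in the neocortex (edgeR adjusted p = 1.0 and 0.973). With limma on the log2 odds of the share over 30020 transcripts, the *Gfap*-202 difference was -1.25 for hippocampal (adjusted p = 0.0152) and -0.86 for neocortical samples (adjusted p = 0.137). The share of *Gfap*-201 is nearly the rest of the gene and mirrors these values as the same effect. Its adjusted p was 0.000415 and 0.00945 with an abundance trend in limma. Without the trend both transcripts stood at 0.0275 in hippocampal and 0.175 in neocortical samples, so the neocortical call holds with the trend only. Between tissues the *Gfap*-202 share differed by 0.17 in WT and -0.22 in miR-324-null mice (adjusted p = 0.796 and 0.601). The hippocampal call of *Gfap*-202 was lost in that fit without WT hippocampus 3 or miR-324-null hippocampus 3 (highest adjusted p = 0.0545).

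Between tissues edgeR called 10.1% of transcripts in WT and 6.73% in miR-324-null mice, and limma called 0.113% and 0.0633% of shares. *Gfap*-202 counts were higher in the hippocampus by 2.11 in WT and 1.5 in miR-324-null mice (edgeR adjusted p = 5.39e-06 and 0.00614). Few transcripts were called by genotype in these fits, and many of them lay on the chromosome that carries *Mir324*. With transcript counts edgeR called 10 in hippocampal (0.0291%) and 9 in neocortical samples (0.0249%), and with shares limma called 21 (0.07%) and 15 (0.05%). On chromosome 11 lay 9 of the 10, 5 of the 9, 13 of the 21 and 10 of the 15, where 7.83%, 7.78%, 7.97% and 7.97% of the transcripts tested lie. *Gfap* is 32.9 Mb from *Mir324* on this chromosome. Of the genes called by genotype, 10 of the 17 hippocampal and 19 of the 47 neocortical ones lay there too, against 7.89% and 7.92% of those tested. Whether the chromosome 11 sequence around the deletion differs between the genotypes was not tested. Assignment of a read to one of these transcripts is an estimate, since part of their sequence is shared.

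**Figure D3:**
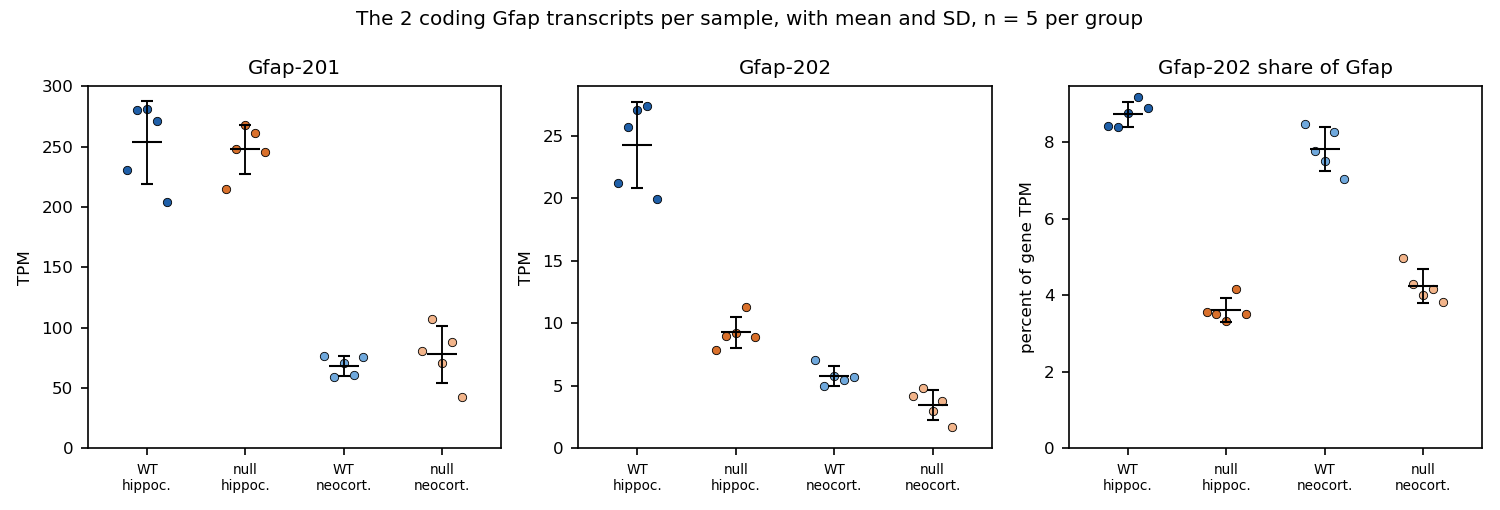
TPM of *Gfap*-201 and of *Gfap*-202, and the share of *Gfap* TPM held by *Gfap*-202 in percent (y axes, from 0), in each sample (points) with mean and SD (bars). *Gfap*-201 overlaps between genotypes, and the share of *Gfap*-202 is 7.04 to 9.17% in WT and 3.33 to 4.98% in miR-324-null samples.

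*Vim* (chr2:13573927-13582826, plus strand), the second filament gene, was 54.7, 58.7, 83.6, 56.0 and 65.3 TPM in WT hippocampus and 49.7, 38.0, 42.6, 39.7 and 59.0 in WT neocortex. The WT tissues overlapped through neocortex sample 5. Its level in miR-324-null mice was 51.2, 53.5, 58.6, 59.0 and 75.6 TPM in the hippocampus and 44.9, 46.4, 36.4, 45.4 and 44.7 in the neocortex, with no overlap. The log2 fold change of hippocampus against neocortex was 0.45 ± 0.121 in miR-324-null mice (edgeR adjusted p = 0.0154) and 0.35 ± 0.159 in WT (adjusted p = 0.105). The highest *Vim* values of both hippocampal groups fell in WT sample 3 and miR-324-null sample 5, libraries with 6965 and 6020 TPM of choroid plexus genes. Without the libraries over 1000 TPM of such genes the log2 fold change was 0.34 (adjusted p = 0.0211) in miR-324-null mice and 0.20 (adjusted p = 0.254) in WT. A short retained-intron transcript, *Vim*-203 of 535 bases, held 43.0% of *Vim* TPM and 12% of its estimated counts on average, so a short transcript with few reads weighs heavily in *Vim* TPM. In WT the tissue difference was called with a transcript length offset (0.50, adjusted p = 0.0186) and without WT neocortex 5 (0.48, adjusted p = 0.0225). By genotype *Vim* stood at -0.06 in the hippocampus and -0.13 in the neocortex (adjusted p = 0.936 and 0.704).

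*Gfap* stood 4.45 ± 0.86 times as high as *Vim* in TPM in WT hippocampus (SD, n = 5), 4.38 ± 0.59 in miR-324-null hippocampus, 1.64 ± 0.16 in WT neocortex and 1.87 ± 0.52 in miR-324-null neocortex. The ranges of the tissues did not overlap in either genotype (exact permutation test, p = 0.00794, the smallest possible, adjusted p = 0.019 over the 12 ratio tests). By genotype the ratios overlapped in both tissues (adjusted p = 0.913 and 0.476). Of 3 partner genes of these filaments, *Synm*, which encodes the linker protein synemin, was higher in WT hippocampus (log2 fold change 0.27, adjusted p = 0.00469). *Plec*, which encodes the crosslinker plectin, was lower in both genotypes (-0.35 and -0.41, adjusted p = 0.000314 and 0.00105).

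*Slc1a2* (chr2:102658659-102790784, plus strand) encodes GLT-1, the transporter that carries most glutamate uptake in the forebrain. It was 463, 488, 385, 494 and 379 TPM in WT hippocampus and 328, 337, 422, 471 and 407 in miR-324-null hippocampus. It was 490, 453, 440, 468 and 473 in WT neocortex and 403, 483, 396, 502 and 410 in miR-324-null neocortex. All groups overlapped. The tissues differed by -0.04 on the log2 scale in WT and -0.06 in miR-324-null mice (adjusted p = 0.755 and 0.608). Its log2 fold change by genotype was -0.17 in the hippocampus (interval -0.38 to 0.03, adjusted p = 0.517) and -0.13 in the neocortex (interval -0.28 to 0.01, adjusted p = 0.446). Both intervals include 0, and whether the *Slc1a2* matches to both seeds are used was not tested.

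*Slc1a3* (chr15:8634124-8710764, minus strand) encodes GLAST, the second glial glutamate transporter. It was 285, 271, 260, 296 and 229 TPM in WT hippocampus and 249, 228, 234, 228 and 248 in WT neocortex. Levels in miR-324-null mice were 250, 250, 272, 298 and 289 in the hippocampus and 253, 308, 237, 330 and 229 in the neocortex. Only WT hippocampus 5 fell into the range of WT neocortex. The tissue difference in WT was small (log2 fold change 0.20 ± 0.0666, adjusted p = 0.0282). It was no longer called without WT hippocampus 1, 2 or 4 or WT neocortex 3 or 4, each left out alone (highest adjusted p = 0.073), nor with limma on log2 TPM (0.0762 and 0.0755). In miR-324-null mice it was 0.14 (adjusted p = 0.171), and by genotype it stood at 0.02 for hippocampal and 0.10 for neocortical samples (adjusted p = 0.953 and 0.633).

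The ratio of the transporters separated the genotypes in the neocortex although neither gene was called alone. The ratio of *Slc1a2* to *Slc1a3* TPM was 1.97, 1.99, 1.88, 2.05 and 1.91 in WT neocortex and 1.59, 1.57, 1.67, 1.52 and 1.79 in miR-324-null neocortex. It was 1.62, 1.80, 1.48, 1.67 and 1.66 in WT hippocampus and 1.31, 1.35, 1.55, 1.58 and 1.41 in miR-324-null hippocampus. In the neocortex all miR-324-null samples lay below all WT samples, and in the hippocampus the genotypes overlapped. The means were 1.96 ± 0.07 and 1.63 ± 0.11 in the neocortex (exact permutation p = 0.00794, adjusted p = 0.019) and 1.65 ± 0.11 and 1.44 ± 0.12 in the hippocampus (exact p = 0.0317, adjusted p = 0.0635). WT hippocampus was also lower than WT neocortex (adjusted p = 0.019), while the tissue difference in miR-324-null mice was not called (exact p = 0.0476, adjusted p = 0.0816). These comparisons share samples with the genotype comparisons. The ratios were chosen after the values had been seen, so their p-values do not carry the usual weight. Of single genes 2.3% did not overlap in CPM by genotype in the neocortex, and no such share was obtained for ratios. With the most abundant transcript of each gene alone, the adjusted p by genotype was 0.0159 in the neocortex and 0.0408 in the hippocampus. The tissue difference in miR-324-null mice was then called too, without overlap (exact permutation p = 0.00794, adjusted p = 0.0159). Both the hippocampal genotype call and this tissue call thus depend on whether the other transcripts are counted. Summed striatal projection neuron genes were 152 to 547 TPM in miR-324-null and 88.8 to 261 TPM in WT neocortex, and their part in the neocortical ratio was not tested.

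**Figure D4:**
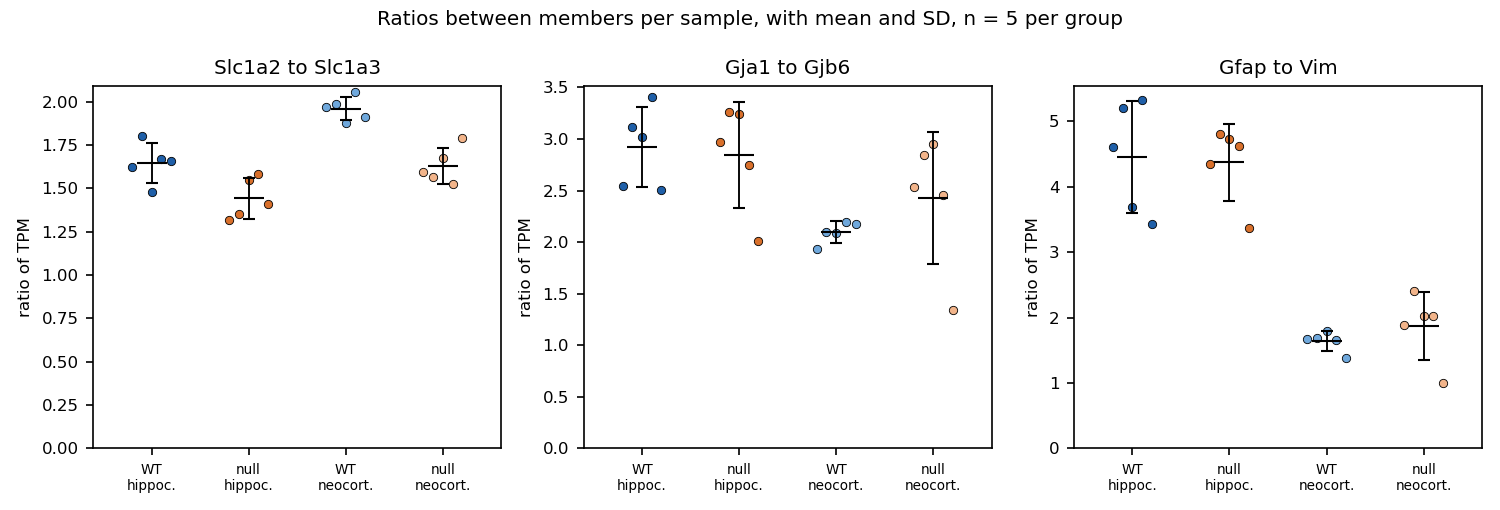
Ratio of TPM (y axes, from 0) of *Slc1a2* to *Slc1a3*, *Gja1* to *Gjb6* and *Gfap* to *Vim* in each sample (points), with mean and SD (bars). In the neocortex *Slc1a2* to *Slc1a3* is 1.88 to 2.05 in WT and 1.52 to 1.79 in miR-324-null samples, and *Gfap* to *Vim* separates the tissues.

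*Glul* (chr1:153899944-153909723, plus strand) was the most abundant of the 10 genes. It was 1140, 1304, 1090, 1129 and 958 TPM in WT hippocampus and 1328, 1293, 1293, 1283 and 1430 in WT neocortex. Levels in miR-324-null mice were 852, 867, 1091, 1229 and 1194 in the hippocampus and 1198, 1475, 1201, 1425 and 1288 in the neocortex. The tissues overlapped in both genotypes. The log2 fold change of hippocampus against neocortex was -0.14 in WT (adjusted p = 0.101) and -0.11 in miR-324-null mice (adjusted p = 0.258). It was called in WT without WT hippocampus 1 (-0.17, adjusted p = 0.0492). With limma on log2(TPM + 0.1) it was -0.24 and -0.34 (adjusted p = 0.0206 and 0.0459). TPM counts a 442-base transcript without coding sequence, *Glul*-204, which held 12.4% of *Glul* TPM and 1.36% of its counts. By genotype *Glul* stood at -0.10 in the hippocampus (interval -0.26 to 0.05) and -0.12 in the neocortex (interval -0.24 to 0.01), with adjusted p = 0.636 and 0.446. Both intervals include 0, and whether the *Glul* matches to the miR-324-5p seed are used was not tested.

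Among 11 other genes of glutamate and glutamine handling, 1 was higher and 3 were lower in WT hippocampus and 1 and 4 in miR-324-null hippocampus. Over all genes 18.1% were higher and 18% lower in WT, and 13.8% and 13.6% in miR-324-null mice. None of the 11 was called by genotype. *Slc1a1*, the neuronal glutamate transporter EAAC1, was higher (log2 fold change 0.62 and 0.65, adjusted p = 3.55e-06 and 4.19e-06). Of the glutamine carriers, *Slc38a1*, which loads glutamine into neurons, was at -0.39 in WT (adjusted p = 4.83e-05), and *Slc38a3*, which exports it from astrocytes, at -0.40 in miR-324-null mice (adjusted p = 0.00346).

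*Aqp4* (chr18:15389496-15410982, minus strand) was 46.3, 49.0, 47.2, 50.7 and 40.2 TPM in WT hippocampus and 32.6, 31.3, 30.8, 29.9 and 36.1 in WT neocortex, with no overlap. In miR-324-null mice it was 38.4, 35.8, 43.3, 46.2 and 34.2 in the hippocampus and 33.2, 41.2, 30.3, 39.0 and 18.8 in the neocortex, and these overlapped. The WT hippocampus was 1.47-fold higher (log2 fold change 0.56 ± 0.0734, adjusted p = 5.05e-05). In miR-324-null mice the log2 fold change was 0.36 ± 0.166 (adjusted p = 0.128), or 0.22 (adjusted p = 0.14) without miR-324-null neocortex 5, and the difference between the tissue effects was -0.20 (unadjusted p = 0.310). With samples paired by their label number, edgeR called the miR-324-null difference (0.40, adjusted p = 0.04). *Aqp4* had the smallest unadjusted genotype p of the 10 genes, in the hippocampus, with a log2 fold change of -0.24 (interval -0.41 to -0.07, edgeR unadjusted p = 0.00871, adjusted p = 0.318). It lay at -0.03 in the neocortex (adjusted p = 0.965).

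Of 10 genes of the endfoot complex that anchors aquaporin-4 and potassium channels to the vessel wall, 2 were higher and 2 lower in WT hippocampus, and 1 and 2 in miR-324-null hippocampus, near the shares of all genes (18.1% higher and 18% lower in WT, 13.8% and 13.6% in miR-324-null mice). Among the lower ones, *Dmd*, the gene of dystrophin, was lower in WT (-0.20, adjusted p = 0.00611). *Dtna*, the gene of dystrobrevin, and *Kcnj10*, the gene of the channel Kir4.1, were lower in miR-324-null mice (-0.20 and -0.33, adjusted p = 0.0198 and 0.0273). None was called by genotype.

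*Gja1* (chr10:56377330-56402513, plus strand) was 119, 120, 108, 120 and 97.3 TPM in WT hippocampus, 103, 102, 111, 115 and 98.6 in miR-324-null hippocampus, 103, 91.4, 97.9, 89.8 and 95.7 in WT neocortex and 93.5, 109, 91.9, 107 and 67.9 in miR-324-null neocortex. The WT tissues overlapped in TPM and not in CPM. In WT the hippocampus was higher by 0.27 ± 0.0644 on the log2 scale (adjusted p = 0.00457). The difference in miR-324-null mice was 0.27 ± 0.103 (adjusted p = 0.0748) and depended on single libraries. It was 0.17 (adjusted p = 0.0851) without miR-324-null neocortex 5, the lowest in *Gja1*, and 0.32 (adjusted p = 0.0449) without miR-324-null neocortex 2. With samples paired by their label number, edgeR called it as well (0.28, adjusted p = 0.0272). By genotype *Gja1* stood at -0.10 and -0.08 (adjusted p = 0.615 and 0.807).

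*Gjb6* (chr14:57123303-57133611, minus strand), the other connexin of astrocytes, did not rise with *Gja1*. It was 46.9, 38.6, 35.7, 35.1 and 38.8 TPM in WT hippocampus, 34.5, 31.3, 34.3, 41.8 and 49.0 in miR-324-null hippocampus, 53.5, 43.5, 47.0, 41.0 and 44.0 in WT neocortex and 36.9, 38.2, 31.1, 43.5 and 50.5 in miR-324-null neocortex. All groups overlapped. The tissue difference was -0.17 in WT (adjusted p = 0.162), where 1 library decided the call. Without WT hippocampus 1 it was -0.26 (adjusted p = 0.0127). In miR-324-null mice it was -0.01 (adjusted p = 0.961), and by genotype -0.06 and -0.20 (adjusted p = 0.907 and 0.457). The ratio of *Gja1* to *Gjb6* was 2.92 ± 0.39 in WT hippocampus and 2.10 ± 0.10 in WT neocortex without overlap (exact permutation p = 0.00794, adjusted p = 0.019). In miR-324-null mice it was 2.85 ± 0.51 and 2.43 ± 0.64 (adjusted p = 0.444), with miR-324-null neocortex 5 lowest at 1.34. Of 5 other connexin and junction genes of glia, 0 were called in any of these 4 edgeR comparisons.

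*Aldh1l1* (chr6:90486427-90600203, plus strand) ran against *Gfap*. It was 27.1, 27.0, 24.8, 27.3 and 30.3 TPM in WT hippocampus, 25.6, 27.8, 27.5, 30.9 and 24.1 in miR-324-null hippocampus, 39.8, 41.9, 34.4, 39.2 and 35.2 in WT neocortex and 34.0, 42.2, 34.5, 43.2 and 36.9 in miR-324-null neocortex. All 10 hippocampal samples lay below all 10 neocortical ones. The hippocampal level was lower by 25.9% in WT (log2 fold change -0.43 ± 0.0592, adjusted p = 7.17e-05) and by 22.8% in miR-324-null mice (-0.37 ± 0.0635, adjusted p = 0.000817). By genotype the estimates were -0.01 and -0.05 (adjusted p = 0.983 and 0.791).

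*S100b* (chr10:76253853-76261159, plus strand) varied little across groups. It ranged from 146 to 182 TPM in WT hippocampus (median 149), from 144 to 168 in miR-324-null hippocampus (158), from 139 to 166 in WT neocortex (153) and from 150 to 185 in miR-324-null neocortex (157). Its log2 fold change lay between -0.02 and 0.07 in the 4 comparisons, with adjusted p from 0.581 to 0.949.

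By the root mean square difference of scaled log2 CPM over the 20 samples, the nearest of 15381 other genes was *Pygb* for *Gfap* (0.166), *Arsb* for *Aqp4* (0.396), *Amot* for *Slc1a3* (0.350) and *Asrgl1* for *Gja1* (0.425). It was *Cxcl12* for *Gjb6* (0.556), *6430548M08Rik* for *Aldh1l1* (0.301), *Lap3* for *S100b* (0.639), *Ucp2* for *Vim* (0.428) and *Adk* for *Glul* (0.425). Smaller values mean a closer pattern. Among the 10 genes themselves the closest pair was *Aqp4* and *Gja1* (0.290), and *Gfap* and *Aldh1l1* stood far apart (1.94). The 5 genes nearest to the mean of the 10 were *Csf1r*, *Gpr17*, *Gpm6b*, *Rlbp1* and *Cx3cr1* (0.445 to 0.579).

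Other genes of astrocytes are given here beside the 36.1% (WT) and 27.4% (miR-324-null) of all genes called between tissues. Of 23 further genes enriched in astrocytes, 10 were higher and 2 lower in WT hippocampus with a median log2 fold change of 0.10, and 2 and 2 in miR-324-null hippocampus with a median of 0.01. *Clu*, which encodes the secreted chaperone clusterin, was higher in both (0.34 and 0.33, adjusted p = 0.000411 and 0.000984), and *Apoe*, the gene of the lipid carrier, in WT (0.38, adjusted p = 0.00109). Of 15 transcription factors of the lineage, 7 were higher and 1 lower in WT, and 3 and 2 in miR-324-null mice. *Zbtb20*, a regulator of hippocampal development, was higher (1.83 and 1.23, adjusted p = 1.65e-09 and 0.000427). *Rorb*, also a factor of neocortical layer neurons, was lower (-1.35 and -1.15, adjusted p = 1.30e-07 and 8.38e-06). None of these genes was called by genotype in either tissue.

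Genes induced in reactive astrocytes were called more often as higher than as lower in the hippocampus. Of all genes, 36.1% were called in WT (18.1% higher, 18% lower) and 27.4% in miR-324-null mice (13.8% and 13.6%). Of 29 such genes 23 were tested in WT, with 8 higher and 2 lower in the hippocampus and a median log2 fold change of 0.31. Of the 24 tested in miR-324-null mice, 6 were higher and 1 lower with a median of 0.32. *Cd109*, a surface protein, was higher by 3.38 and 2.73 (adjusted p = 2.99e-07 and 0.000134), *Serpina3n*, a protease inhibitor, by 1.74 in miR-324-null mice (adjusted p = 3.40e-06) and *C3*, a complement component, by 1.87 in WT (adjusted p = 0.0190). Neurons, microglia and choroid plexus express some of these genes as well. None of those tested was called by genotype, with medians of 0.06 in the hippocampus and 0.03 in the neocortex.

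Markers of other cells and of the dissected regions bear on these values. Their counts stand beside 18.1% of all genes called higher and 18% lower in WT hippocampus. In miR-324-null hippocampus these shares were 13.8% and 13.6%. Region genes followed the labels, with 8 of 8 hippocampal field genes higher in WT hippocampus (7 of 8 in miR-324-null) and 6 of 8 neocortical layer genes lower in each genotype. *Spink8*, a gene of hippocampal pyramidal fields, stood at a log2 fold change of 5.34 in WT (adjusted p = 2.21e-09). Neuron genes were lower in WT hippocampus for 6 of 10, with *Snap25*, a protein of synaptic vesicle release, at -0.69 (adjusted p = 4.07e-07). Their summed level was 4668 to 5145 TPM in WT hippocampus against 5986 to 6549 in WT neocortex. In miR-324-null hippocampus 4 of the 10 were lower and 1 higher, with a median log2 fold change of -0.09 against -0.25 in WT. A mixed list of ependyma, radial glia and young neuron genes was higher for 4 of the 8 tested in WT and 5 of 10 in miR-324-null mice. These genes summed to 169 to 252 TPM in WT hippocampus and 91.8 to 131 in WT neocortex. Among them *Hopx*, a gene of radial glia, was at 1.04 and *Dcx*, a gene of young neurons, at -1.04 in WT (adjusted p = 0.000136 and 3.69e-05). Mature oligodendrocyte and vascular genes gave 0 calls in either tissue comparison, oligodendrocyte precursor genes 3 of 8 higher and microglia genes 1 of 10 higher, both called in WT and not in miR-324-null mice. Striatal projection neuron genes were lower in the hippocampus for 7 of 7 in miR-324-null mice (median log2 fold change -2.21) and 2 of 7 in WT (-0.63). Choroid plexus genes were higher for 5 of the 6 tested in WT and 1 of 6 in miR-324-null mice, and meningeal genes for 2 of 7 in each genotype. All genes of these lists were detected in at least 1 sample of every group. Their part in the tissue differences of the astrocyte genes was not tested.

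Without the 3 libraries rich in choroid plexus RNA 5 of the 10 astrocyte genes were still called by tissue in WT (32.2% of all genes), and 4 in miR-324-null mice (21% of all genes) with *Gja1* added (0.35, adjusted p = 0.0458). By genotype 0 were called (0.129% of all hippocampal and 0.213% of all neocortical genes tested). Striatal projection neuron genes had a median log2 fold change of 1.06 by genotype in the neocortex, and 0 of the 7 were called.

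**Figure D5:**
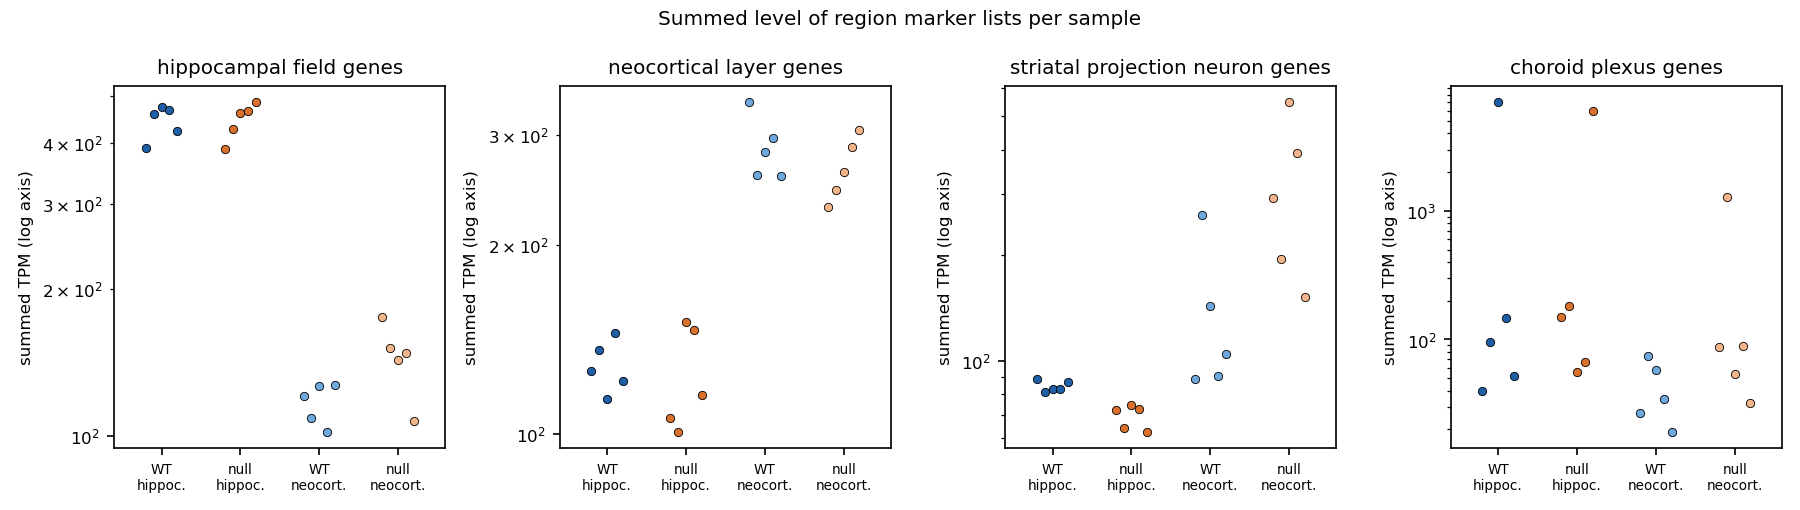
Summed TPM (log y axes) of genes of hippocampal fields, neocortical layers, striatal projection neurons and choroid plexus in each sample. Choroid plexus genes exceed 1000 TPM in 3 libraries, and striatal genes reach 547 TPM in a miR-324-null neocortex sample.

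The library miR-324-null neocortex 5 combined the lowest *Gfap*, *Aqp4* and *Gja1* of its group with the highest *Gjb6*. It was also lowest of its group in summed hippocampal field (107 TPM), striatal (152), choroid plexus (32.2), meningeal (23.4), microglia (355) and endfoot genes (427). The same held for the mixed list of ependyma, radial glia and young neuron genes (88.9). The library was highest in neocortical layer (306), neuron (6618), vascular (486) and intermediate filament partner genes (45.6). Without it the tissue difference in miR-324-null mice was 1.58 for *Gfap* (adjusted p = 3.21e-06), 0.45 for *Vim* (0.0287) and -0.37 for *Aldh1l1* (0.00227), so the 3 calls stood. The differences of *Aqp4* and *Gja1*, not called with or without it, fell to 0.22 and 0.17. The genotype estimates in the neocortex were then 0.25 for *Gfap* (adjusted p = 0.261), 0.12 for *Aqp4* and 0.01 for *Gja1*, each further up than with it.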

How the data were processed

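RNA was extracted with mirVana kits, libraries were made with TruSeq Stranded mRNA reagents and sequenced on a NextSeq 500. The authors ran kallisto against GRCm38 transcripts of Ensembl release 92 and deposited, for each sample, estimated counts and TPM per transcript (TPM is scaled to transcript length and library total). The labels name GRCh38 as build, but the transcript IDs are mouse. The kallisto version and its strand setting are not given in the sources used here. Of 115270 transcripts, 113580 matched GENCODE M21 by ID and were summed to 35580 genes. The 1690 unmatched held at most 0.556% of a sample's counts. No column of another sample was left unused (0).

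Estimated counts were rounded and tested with edgeR 4.0.16 in R 4.3.3 (TMM, filterByExpr, quasi-likelihood F-test), in fits of the 10 samples compared, with the interaction from all 20. Benjamini-Hochberg adjustment ran over all genes tested and adjusted p of at most 0.05 was a call. Log2 fold changes carry SE and 95% intervals. Ratios and transcript shares were tested by exact two-sided permutation (scipy 1.17.1). Transcript counts were tested with edgeR, and log2 odds of shares with limma 3.58.1. The fits across all genes or transcripts were tested on simulated data, the permutation tests were not. With 100 genes each changed by 0.5 or 1 on the log2 scale, edgeR recovered 85% and 100% between WT tissues (14760 genes), 68% and 98% between miR-324-null tissues (14917), 68% and 99% by genotype in the hippocampus (14684) and 75% and 99% in the neocortex (14813). Of edgeR's calls there, 3.49 to 6.95% were of unchanged genes, against 8.47 to 17.9% with DESeq2. At a shift of 1, limma on shares recovered 62% and 51% between WT and miR-324-null tissues, and 52.5% and 67.5% by genotype in hippocampus and neocortex (30020 transcripts each). The shifted transcripts were drawn only from those that varied little within groups, so these values do not cover all transcripts. With transcript counts edgeR recovered 80.5% to 84.5% at a log2 change of 1, among abundant transcripts simulated with the same spread.

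The 10 genes and all gene lists were chosen with earlier results of these data known. The text names all 10 genes. From each other list and comparison it could name all called genes where at most 3 were called, otherwise the 2 with the largest absolute log2 fold change. It also names the gene nearest to each of the 10 and the 5 nearest to their mean. Values of some genes so chosen are not reported here. DESeq2 1.42.0 size factors and Wald test, other filters on low counts, a transcript length offset, limma on log2(TPM + 0.1) and log2(TPM + 1), all 20 samples in one fit, a replicate block and leaving out each sample were alternatives. Ratios, protein-coding transcripts only, transcript-level tests, the 1% minimum share and leaving out libraries rich in choroid plexus genes were added after seeing the data.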

Additional observations from a re-analysis of the deposited data

Results flagged for a closer look

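*Vim* in miR-324-null neocortex 3 was 36.4 TPM, the lowest of its group and apart from the other 4 samples, which lay between 44.7 and 46.4 TPM. Its gap to the nearest sample was 0.828 of the whole range of the group, above Dixon's critical value of 0.71 for 5 samples. Of the 40 groups of values tested (10 genes in 4 groups) 1 was picked out in this way, where chance picks about 1 in 20.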

How the results depend on the processing

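Leaving out each sample in turn gave 4 to 6 of the 10 genes called by tissue in WT, 3 to 4 in miR-324-null mice, and 0 by genotype or in the interaction. The replicate block, which pairs samples by their label number, gave 5 genes called by tissue in miR-324-null mice against 3 without it (*Aqp4* and *Gja1* added, adjusted p = 0.04 and 0.0272), while in WT *Gjb6* was gained (0.0249) and *Slc1a3* lost (0.0533). The samples share a number, and the labels do not say that it marks an animal. Not every pair correlated over 0.1, so they were not treated as paired, but this cut does not settle whether the numbers mark animals. Deviations of same-numbered samples correlated at -0.118 to 0.104 between tissues in WT (1 of 5 over 0.1, own number best in 2 of 5) and -0.0126 to 0.204 in miR-324-null mice (3 of 5 on both counts). Between genotypes, where same-numbered samples are different mice, they correlated at -0.214 to 0.143 in the hippocampus (own number best in 0 of 5). In the neocortex it was -0.111 to 0.154 (1 of 5). Counts over all genes moved little by tissue with the block (5044 against 5378 in WT, 4041 against 4125 in miR-324-null mice) and more by genotype. There DESeq2's Wald test called 139 and 240 genes in hippocampus and neocortex and 11 in the interaction, all 20 samples in one fit 83 and 56, and the block 4, 30 and 0, against 17, 47 and 3. Of the log2 fold changes of single genes outside the left-out samples, 505 kept direction and call, 12 were gained, 3 lost and 20 changed sign, all close to 0, and for these the cause was not tested. With the libraries over 1000 TPM of choroid plexus genes left out, these were *Slc1a2* by tissue in WT (0.0142), *Slc1a3* by genotype in the hippocampus (-0.01828), *Gfap* (-0.04953) and *S100b* (-0.02132) by genotype in the neocortex, and *Gja1* (0.04897) and *Glul* (-0.01132) in the interaction. With limma on log2(TPM + 0.1) and log2(TPM + 1) they were *S100b* by tissue in miR-324-null mice (-0.0512 and -0.05092), *Aldh1l1* by genotype in the neocortex (0.0005783 and 0.0006306) and, in the interaction, *Aldh1l1* (-0.007845 and -0.007604), *Vim* (-0.03192 and -0.03158) and *Glul* (-0.1005 and -0.1004). With the length offset they were *Gjb6* by tissue in miR-324-null mice (0.008996) and *Glul* in the interaction (-0.04702), with protein-coding transcripts only *Aldh1l1* by genotype in the hippocampus (0.02298), and with the block *Gja1* in the interaction (0.00331). The ratio of *Gfap* to *Vim* by genotype in the hippocampus differed by 0.8001 with the main transcripts only, against -0.0769. Leaving out 1 sample at a time, signs changed within these ranges. By tissue they were -0.07741 to 0.02512 for *Slc1a2* in WT, and in miR-324-null mice -0.1157 to 0.08344 for *Gjb6* and -0.01387 to 0.07387 for *S100b*. By genotype in the hippocampus they were -0.03192 to 0.06069 for *Slc1a3*, -0.1616 to 0.03331 for *Gjb6*, -0.04665 to 0.02711 for *Aldh1l1*, -0.06711 to 0.0283 for *S100b* and -0.1864 to 0.1077 for *Vim*. In the neocortex they were -0.04953 to 0.2461 for *Gfap*, -0.1295 to 0.1151 for *Aqp4*, -0.1356 to 0.01431 for *Gja1* and -0.02132 to 0.06171 for *S100b*. In the interaction they were -0.09623 to 0.002687 for *Slc1a2*, -0.11 to 0.0393 for *Gja1*, -0.08817 to 0.004084 for *S100b*, -0.0488 to 0.2467 for *Vim* and -0.02226 to 0.05228 for *Glul*. Depth limits the transcripts more than the genes, since *Gfap*-202 rests on as few as 45.5 estimated counts in a sample.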
